A study of Mus musculus with 6 samples.

Results

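The 9 genes described here make, carry and destroy retinoic acid: Rbp4, Rdh10, Dhrs3, Aldh1a1, Aldh1a2, Aldh1a3, Crabp1, Cyp26a1 and Cyp26b1. They were taken by symbol from the 54532 genes of the deposited table, all 9 were found, and all 9 were among the 17673 genes with enough fragments to be tested. The table holds polyadenylated RNA of whole mouse testis on postnatal day 9, from 3 wild-type libraries and 3 libraries with a conditional knockout of Ppp6r3, written Ppp6r3 cKO. Ppp6r3 is a gene for one of the regulatory subunits of protein phosphatase 6. The labels give neither the Cre line nor the cells it acts in, and nothing in them ties the 3 libraries of a genotype to different animals; the p-values below therefore reflect library-to-library spread, which could be technical. By its title the study concerns mRNA translation while spermatogonia differentiate. The comparison made here is between the 2 genotypes.

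Retinoic acid is made from retinol (vitamin A) by a pair of oxidation steps. Retinol is first turned into retinal, reversibly, and retinal is then turned into retinoic acid by the ALDH1A enzymes, while CYP26 enzymes oxidise retinoic acid and so end its action. In the testis retinoic acid drives spermatogonia into differentiation and germ cells into meiosis. In the adult, Aldh1a1 is known mainly from Sertoli cells, the somatic cells that nurse the germ cells, Aldh1a2 from spermatocytes, and Cyp26b1 from the peritubular myoid cells around the tubules.

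Values are FPKM, fragments divided by exon length and by the depth of the library, so levels of different genes can be set side by side. The libraries held 15970908 to 16606868 fragments, as inferred from the steps between the values. Fragments recovered gene by gene summed to more than this total in each library, at 16213231 to 16986665. The reason was not tested, so recovered fragments are approximate. Ppp6r3 was lower in all 3 Ppp6r3 cKO libraries, at 14.9 to 15.8 FPKM against 20.8 to 21.3 FPKM in wild type, which is 0.73 of the wild-type mean over the whole gene in whole tissue. In whole tissue, fewer cells of a type and less RNA per cell cannot be told apart for any gene below.

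The 9 genes did not move as a group. In Ppp6r3 cKO testis Cyp26b1 and Aldh1a1 rose, while Rbp4, Rdh10, Aldh1a2 and Cyp26a1 fell, and Dhrs3, Aldh1a3 and Crabp1 did not pass the test (limma on log2(FPKM + 0.1), Benjamini-Hochberg adjusted p under 0.05). The 6 that passed compare with 15.5% of all tested genes, of which 7.65% rose and 7.83% fell. In 8 of the 9 genes the 3 libraries of one genotype lay wholly above the 3 of the other, 3 of them higher and 5 lower in Ppp6r3 cKO. Of all tested genes 36.9% were separated in this way, 18.8% higher and 18.2% lower. The changes were small: the median absolute log2 fold change was 0.28 over the 9 genes and 0.14 over all tested genes, and the signed medians were -0.17 and 0.0027.

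**Figure D1:**
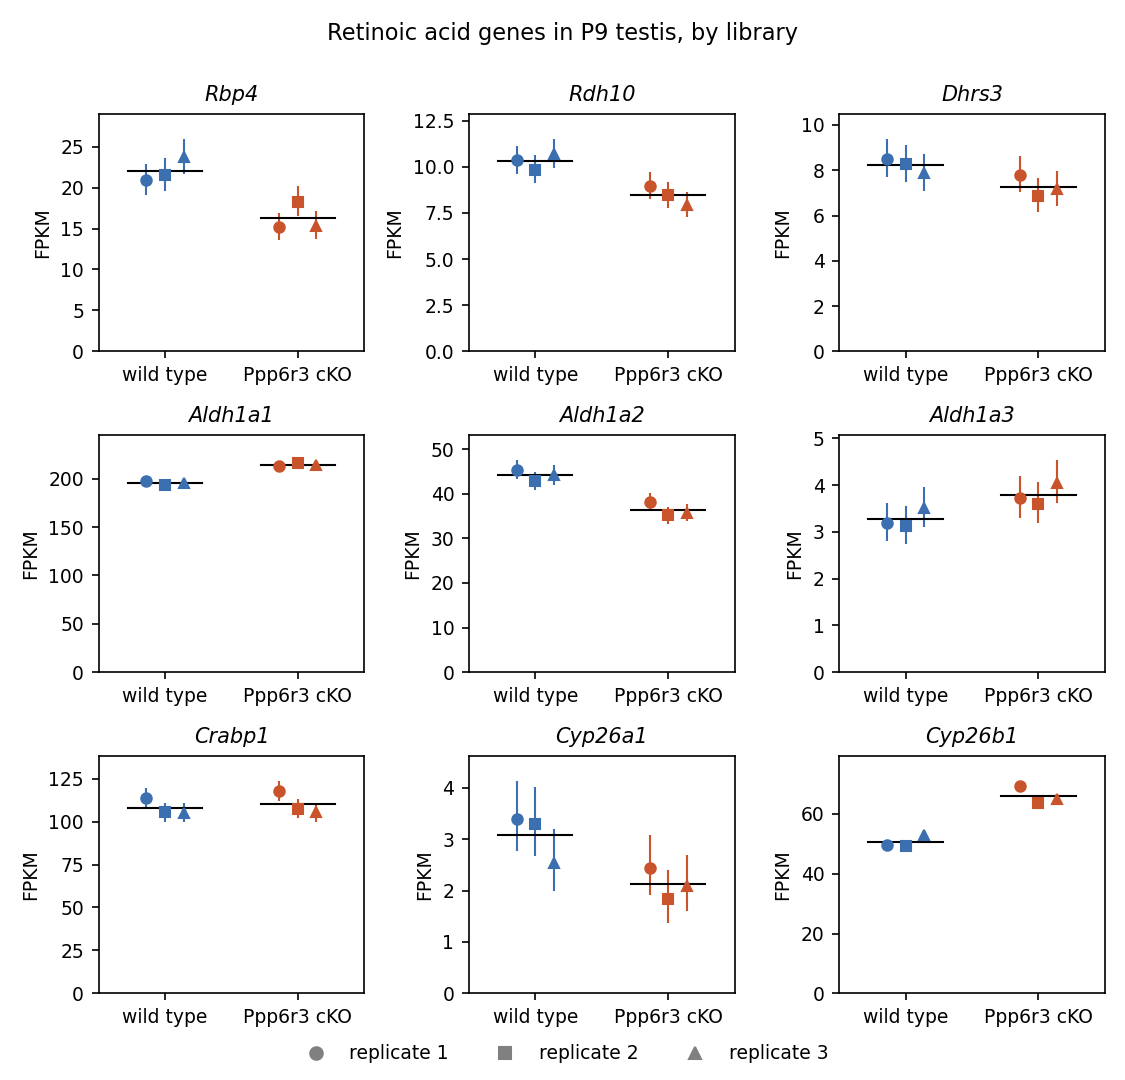
FPKM (vertical axis, from 0) of each of the 9 genes in the 3 wild-type (blue) and 3 Ppp6r3 cKO (orange) libraries. Marker shapes are replicate numbers, vertical bars are exact 95% Poisson intervals of the fragments behind each value (counting error only) and black lines are group means. Cyp26b1 was at 49.2 to 52.9 FPKM in wild type against 63.7 to 69.3 FPKM in Ppp6r3 cKO, and the groups overlapped only for Crabp1.

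The promoter of Cyp26a1 is shown first because it carries the element through which retinoic acid is known to induce its own breakdown. The RefSeq table of promoters (GRCm38.p6, the assembly called mm10) held 7 of the 9 genes, with 11 promoters between them. Aldh1a3 and Rdh10 had no entry. A retinoic acid response element is a direct repeat of a 6-base unit. Each unit was searched as AGGTCA, as its variant AGTTCA, or as either of these with G in first place (GGGTCA and, likewise, GGTTCA), on both strands and with a spacer of 1, 2 or 5 bases, in windows of 250 bases before to 50 after each gene's start. Of the 11 promoters only that of Cyp26a1 held such a repeat, with a spacer of 5 bases. Of all 32851 promoters in the table, 0.0974% held a repeat with a spacer of 5, 0.268% one with a spacer of 2 and 0.222% one with a spacer of 1. The 250 bases before the RefSeq start of Cyp26a1, which lies a few bases inside the GENCODE bounds given further on, follow (chr19:37697558-37697807, plus strand, 5′ to 3′), with the repeat in capitals:

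Cyp26a1 promoter: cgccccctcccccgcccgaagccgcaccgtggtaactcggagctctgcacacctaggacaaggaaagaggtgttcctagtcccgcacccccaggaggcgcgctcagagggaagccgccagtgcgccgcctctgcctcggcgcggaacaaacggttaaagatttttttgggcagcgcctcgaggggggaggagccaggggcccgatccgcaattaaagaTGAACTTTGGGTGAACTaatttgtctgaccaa

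The repeat runs from 32 to 16 bases before the RefSeq start (chr19:37697776-37697792) and lies on the opposite strand, where it reads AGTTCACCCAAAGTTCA, that is the unit AGTTCA on both sides of the spacer. The match is a description of these letters, and their absence from the other windows says nothing about elements farther away.

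Supply of retinol came first. Rbp4 (ENSMUSG00000024990, chromosome 19, 38116629 to 38125281, minus strand) encodes the plasma protein that carries retinol from the liver to other tissues. It stood at 20.9, 21.6 and 23.8 FPKM in wild-type replicates 1 to 3 and at 15.2, 18.3 and 15.3 FPKM in Ppp6r3 cKO replicates 1 to 3. The groups did not overlap, and the highest Ppp6r3 cKO library was replicate 2. The means were 22.1 ± 1.48 and 16.3 ± 1.75 FPKM (SD, n = 3 each), so Rbp4 fell by 0.44 in log2 units (SE 0.081, limma adjusted p = 0.0105). Each value rested on 321 to 492 fragments. The call held without any 1 library, with log2 fold changes from -0.53 to -0.39.

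Markers of liver and blood plasma were measured in the same libraries, and their part in the fall of Rbp4 was not tested. The 8 listed genes summed to 8.7 to 9.72 FPKM in wild type against 6.47 to 9.06 FPKM in Ppp6r3 cKO, Fgb and Serpina1a were at 0 in every library, and Alb averaged 0.0617 and 0.0702 FPKM. Most of the sum came from Ahsg, at 6.77 ± 0.376 FPKM in wild type against 5.81 ± 0.303 FPKM in Ppp6r3 cKO (SD, n = 3 each), whose groups did not overlap and which did not pass (log2 fold change -0.22, limma adjusted p = 0.0637). Apoa2 averaged 1.55 and 1.38 FPKM, and none of the 3 tested genes of the list passed.

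The interconversion of retinol and retinal is represented by Rdh10 and Dhrs3, which work in opposite directions. Rdh10 (ENSMUSG00000025921, chromosome 1, 16105774 to 16133734, plus strand), which oxidises retinol to retinal, stood at 10.3, 9.84 and 10.7 FPKM in wild type and at 8.98, 8.47 and 7.94 FPKM in Ppp6r3 cKO. No Ppp6r3 cKO library reached the lowest wild-type library. The means were 10.3 ± 0.428 and 8.46 ± 0.518 FPKM (SD, n = 3 each), and Rdh10 fell by 0.28 (SE 0.061, limma adjusted p = 0.02). The call was lost when wild-type replicate 1 or 3, or either of Ppp6r3 cKO replicates 2 and 3, was left out, where the log2 fold change was -0.28, -0.25, -0.28 and -0.24 (limma adjusted p = 0.052 to 0.0769). It was also lost with no filter on low values (limma adjusted p = 0.0565) and with the replicate block joined to the GC and length correction (-0.24, limma adjusted p = 0.0681).

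Dhrs3 (ENSMUSG00000066026, chromosome 4, 144892827 to 144928209, plus strand) reduces retinal back to retinol and is itself known to be induced by retinoic acid. It stood at 8.52, 8.28 and 7.87 FPKM in wild type and at 7.80, 6.88 and 7.16 FPKM in Ppp6r3 cKO. The groups came close, with 7.87 FPKM in the lowest wild-type library and 7.80 FPKM in the highest Ppp6r3 cKO library. The log2 fold change was -0.17 (95% interval -0.32 to -0.029) and did not pass (limma adjusted p = 0.103). Without Ppp6r3 cKO replicate 1 it was -0.22 and passed (limma adjusted p = 0.0492). The ratio of Rdh10 to Dhrs3 was 1.19 to 1.36 in wild type and 1.11 to 1.23 in Ppp6r3 cKO, overlapping ranges.

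The 3 ALDH1A enzymes, which make retinoic acid from retinal, split. Aldh1a1 (ENSMUSG00000053279, chromosome 19, 20492715 to 20643465, plus strand) was the most abundant of the 9 genes, higher in wild type than 99.1% of tested genes. It stood at 197.5, 193.6 and 195.1 FPKM in wild type and at 212.6, 215.9 and 213.9 FPKM in Ppp6r3 cKO. The libraries of each group lay within a few FPKM of each other and the groups were well apart. Aldh1a1 rose by 0.13 in log2 units (SE 0.032, limma adjusted p = 0.0276), to 1.10 times the wild-type level, the smallest change among the 6 that passed. The call was lost when wild-type replicate 1, 2 or 3, or either of Ppp6r3 cKO replicates 2 and 3, was left out, where the log2 fold change was 0.13 to 0.14 (limma adjusted p = 0.0639 to 0.117), and after quantile normalization (0.09, limma adjusted p = 0.0834).

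Aldh1a7 lies beside Aldh1a1 on chromosome 19 (20692953 to 20727562) and is a close copy of it, so fragments of either could have been assigned to the other. It was looked up for that reason, after the values of Aldh1a1 were seen. Aldh1a7 averaged 7.03 ± 1.09 FPKM in wild type against 5.75 ± 0.378 FPKM in Ppp6r3 cKO (SD, n = 3 each), and its log2 fold change of -0.28 did not pass (limma adjusted p = 0.119). The rise of Aldh1a1 was 18.7 FPKM, and the part of shared fragments in it was not tested.

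Aldh1a2 (ENSMUSG00000013584, chromosome 9, 71215789 to 71296243, plus strand) went the other way. It stood at 45.3, 42.8 and 44.1 FPKM in wild type and at 38.2, 35.1 and 35.7 FPKM in Ppp6r3 cKO. All 3 Ppp6r3 cKO libraries were lower than every wild-type library. The means were 44.1 ± 1.26 and 36.3 ± 1.63 FPKM (SD, n = 3 each), and Aldh1a2 fell by 0.28 (SE 0.045, limma adjusted p = 0.00678). The call held without any 1 library, from -0.31 to -0.25.

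Aldh1a3 (ENSMUSG00000015134, chromosome 7, 66390890 to 66427517, minus strand) was scarce, with 240 to 302 fragments per library. It stood at 3.20, 3.13 and 3.51 FPKM in wild type and at 3.73, 3.60 and 4.05 FPKM in Ppp6r3 cKO, with no overlap between groups. The log2 fold change of 0.20 (95% interval 0.011 to 0.40) did not pass (limma adjusted p = 0.14).

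Of the summed ALDH1A level, Aldh1a1 made up 80.3% to 80.8% in wild type and 83.5% to 84.8% in Ppp6r3 cKO, and Aldh1a2 made up 17.9% to 18.4% and 13.8% to 15.0%. The sum itself was 239.5 to 246 FPKM in wild type against 253.6 to 254.7 FPKM in Ppp6r3 cKO. The ratio of Aldh1a1 to Aldh1a2 was thus 4.36 to 4.52 in wild type and 5.57 to 6.15 in Ppp6r3 cKO. These sums and ratios are given as a description of the libraries and carry no test.

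**Figure D2:**
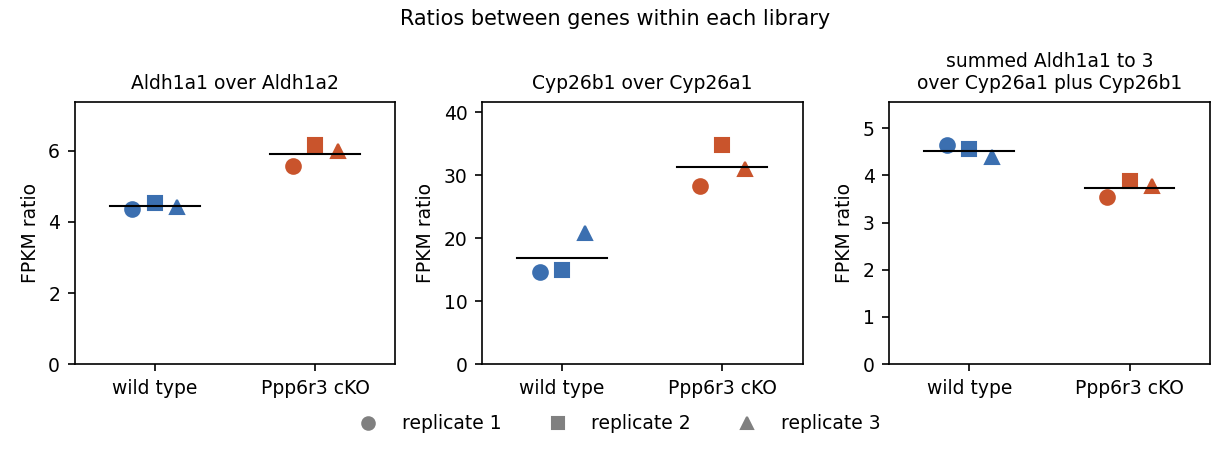
Ratio of FPKM values within each library (vertical axes, from 0) for Aldh1a1 over Aldh1a2, for Cyp26b1 over Cyp26a1, and for the 3 ALDH1A genes summed over the 2 CYP26 genes summed, in wild type (blue) and Ppp6r3 cKO (orange). Marker shapes are replicate numbers and black lines are group means. The groups did not overlap in any of the 3 ratios.

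Crabp1 (ENSMUSG00000032291, chromosome 9, 54764748 to 54773110, plus strand) encodes a protein that binds retinoic acid in the cytoplasm. It was the second most abundant of the 9, at 113.6, 105.4 and 105.3 FPKM in wild type and at 117.7, 107.7 and 105.5 FPKM in Ppp6r3 cKO. The groups covered nearly the same range, and replicate 1 was the highest in both. The log2 fold change was 0.03 with a 95% interval of -0.093 to 0.15 (limma adjusted p = 0.765), which leaves room for a change of about the size seen in Aldh1a1.

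The CYP26 enzymes, which break retinoic acid down, also split. Cyp26b1 (ENSMUSG00000063415, chromosome 6, 84571414 to 84593908, minus strand), best known for keeping germ cells of the fetal testis out of meiosis, showed the smallest p of the 9. It stood at 49.7, 49.2 and 52.9 FPKM in wild type and at 69.3, 63.7 and 65.1 FPKM in Ppp6r3 cKO. Every Ppp6r3 cKO library was above every wild-type library by more than the range of either group. The means were 50.6 ± 1.97 and 66.0 ± 2.88 FPKM (SD, n = 3 each), and Cyp26b1 rose by 0.38 (SE 0.047, limma adjusted p = 0.00221), to 1.30 times the wild-type level. The call held without any 1 library, from 0.35 to 0.42.

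Cyp26a1 (ENSMUSG00000024987, chromosome 19, 37697798 to 37701536, plus strand), whose promoter is printed above, was the scarcest of the 9. It stood at 3.40, 3.30 and 2.54 FPKM in wild type and at 2.44, 1.84 and 2.10 FPKM in Ppp6r3 cKO. These values rest on 100, 97 and 72 fragments in wild type and on 71, 52 and 60 in Ppp6r3 cKO, and the lowest wild-type library and the highest Ppp6r3 cKO library differ by 1 fragment. Exact 95% Poisson intervals were 1.99 to 3.20 FPKM for that wild-type library and 1.91 to 3.08 FPKM for that Ppp6r3 cKO library, counting error only. Cyp26a1 fell by 0.51 (SE 0.15, limma adjusted p = 0.049), the largest change of the 9 and the one nearest the threshold. The call was lost when wild-type replicate 1 or 2, or either of Ppp6r3 cKO replicates 2 and 3, was left out, where the log2 fold change was -0.44, -0.46, -0.42 and -0.51 (limma adjusted p = 0.107 to 0.147). It was also lost with the replicate block (-0.51, limma adjusted p = 0.0556), with the replicate block joined to the GC and length correction (-0.49, limma adjusted p = 0.0594), after quantile normalization (limma adjusted p = 0.0563), with a minimum of 0.5 FPKM (limma adjusted p = 0.0644) and with no filter (limma adjusted p = 0.127).

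Cyp26b1 outnumbered Cyp26a1 per length by 14.6 to 20.8 times in wild type and by 28.4 to 34.7 times in Ppp6r3 cKO. Together the pair summed to 52.5 to 55.4 FPKM in wild type against 65.6 to 71.7 FPKM in Ppp6r3 cKO, and Cyp26a1 held 4.59% to 6.40% and 2.80% to 3.41% of that sum. The summed level of the ALDH1A genes was 4.38 to 4.63 times that of the CYP26 pair in wild type and 3.55 to 3.88 times in Ppp6r3 cKO. These are ratios of messenger RNA and not of enzyme activity.

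**Figure D3:**
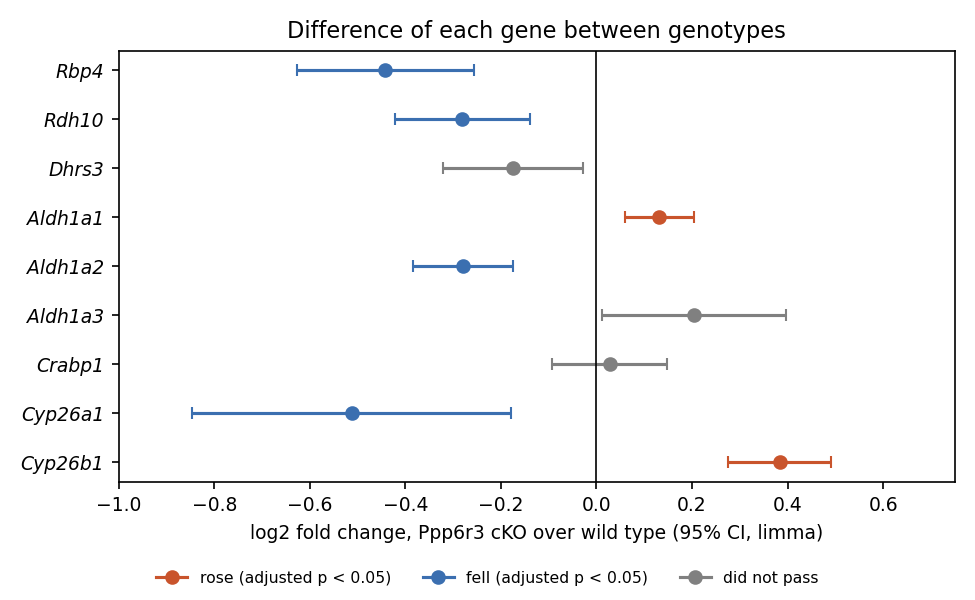
Log2 fold change of Ppp6r3 cKO over wild type (horizontal axis) with its 95% interval from limma, for the 9 genes in the order of the pathway, from the retinol carrier to the CYP26 enzymes. Orange rose, blue fell and grey did not pass; Cyp26b1 was at 0.38, and Cyp26a1, at -0.51, had the widest interval.

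Levels in wild type fell in the order Aldh1a1 (195.4 FPKM), Crabp1 (108.1), Cyp26b1 (50.6), Aldh1a2 (44.1), Rbp4 (22.1), Rdh10 (10.3), Dhrs3 (8.22), Aldh1a3 (3.28) and Cyp26a1 (3.08). Among neighbours in that order, only Aldh1a3 and Cyp26a1 had overlapping ranges in wild type. The order was the same in Ppp6r3 cKO, where Aldh1a3 (3.80 FPKM) and Cyp26a1 (2.13 FPKM) no longer overlapped. The gap between Cyp26b1 and Aldh1a2 went from 1.15 times in wild type to 1.82 times in Ppp6r3 cKO.

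Cyp26a1 and Rbp4, which both fell, lie 415093 bases apart on chromosome 19 with 3 tested genes between them, looked up after the values were seen. Of these the membrane repair gene Myof rose (log2 fold change 0.37), the cytokinesis gene Cep55 fell (-0.22) and the fatty acid receptor gene Ffar4, at 0.247 and 0.696 FPKM, rose (1.29). The targeted gene Ppp6r3 lies on the same chromosome (3454928 to 3575749), as does Aldh1a1. The part of DNA linked to the targeted gene was not tested.

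The genes most like each member over the 6 libraries, by Pearson correlation of log2(FPKM + 0.1) among 11925 named protein-coding genes of at least 1 FPKM, were found for the 6 members that passed. For Cyp26b1 they were Sparcl1 (r = 0.9985), Tubgcp5 (0.9972) and Sirpa (0.9961). For Aldh1a1 they were Nuak1 (r = 0.9989), Kif20a and Fndc3b (both 0.9971), and for Aldh1a2 they were Ivd (r = 0.9981), Tnip2 (0.9975) and Commd10 (0.9967). For Rbp4 they were Usp4 (r = 0.9945), Nr2c1 (0.9944) and Ier3ip1 (0.9942). For Rdh10 they were Osbpl2 (r = 0.9947), Pomt1 (0.9939) and Snu13 (0.9933), and for Cyp26a1 they were Mrps11 (r = 0.9974), Atox1 (0.9957) and Tarbp2 (0.9941). Usp4, Nr2c1, Ier3ip1, Mrps11 and Tarbp2 did not themselves pass the test. All points share the same libraries and the genotype difference, so the values are descriptive. The highest of 11925 correlations over 6 points can also come near 1 by selection alone. Shared regulation was not tested.

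The other genes of the retinoid pathway were called about as often as all tested genes (15.5%). Of 42 other genes of retinoid metabolism, binding and uptake, 41 were found and 23 tested: 2 rose, 1 fell and 20 did not pass; the median log2 fold change was -0.02. Adh1, an alcohol dehydrogenase that oxidises retinol among other alcohols, averaged 25.9 ± 0.851 and 31.6 ± 0.425 FPKM (SD, n = 3 each), a log2 fold change of 0.29 (limma adjusted p = 0.00394). Dgat1, which makes triglycerides and can esterify retinol, averaged 19.9 ± 1.18 and 13.9 ± 0.950 FPKM (SD, n = 3 each), a log2 fold change of -0.52 (limma adjusted p = 0.00252). Adh5, the formaldehyde-clearing member of the family, went from 38.5 to 42.6 FPKM (log2 fold change 0.15, limma adjusted p = 0.0404). The Adh5 call was lost without any 1 library other than Ppp6r3 cKO replicate 1, with log2 fold changes from 0.12 to 0.16 over the libraries left out, with no filter and with either replicate block. The 6 genes at 0 in every library were Dhrs9, Hsd17b6, Rdh7, Rdh9, Sdr16c5 and Ttr.

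Some of the genes that did not pass are named here for their role. Stra6, the cell surface receptor for RBP4, stood at 9.64 and 8.45 FPKM (log2 fold change -0.19, limma adjusted p = 0.143). Lrat, which stores retinol as esters, stood at 0.148 and 0.154 FPKM. Crabp2, which hands retinoic acid to its nuclear receptor, stood at 0.983 and 0.686 FPKM (-0.46, limma adjusted p = 0.0903), below Crabp1 by a wide margin in both genotypes. Cyp26c1, the third CYP26 enzyme, had too few fragments to be tested, at 0.325 and 0.356 FPKM.

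Genes known to be induced by retinoic acid were compared as a further readout. Of 16 listed, 12 were tested: 1 rose, 3 fell and 8 did not pass (median 0.016). The share passing over all tested genes was 15.5%. The 3 that fell belong to meiotic entry and prophase: Meiosin (listed as Gm4969) fell by 1.78, Stra8 fell by 1.34 and the meiotic cohesin gene Rec8 fell by 0.63. Btg2, an inhibitor of proliferation, rose by 0.34 (limma adjusted p = 0.0164), a call lost when replicate 2 of either genotype was left out (log2 fold changes from 0.28 to 0.42 over the libraries left out) and with no filter. Of targets outside meiosis that did not pass, Rarb and Tgm2 are named for their role. Rarb, which encodes a retinoic acid receptor, stood at 0.139 and 0.113 FPKM (limma adjusted p = 0.73), and Tgm2, which encodes a transglutaminase, stood at 15.0 and 15.7 FPKM (log2 fold change 0.06, limma adjusted p = 0.429). Dhrs3 (-0.17, not passing) and Cyp26a1 (-0.51), both among the 9, are also known targets. Cyp26a1 was called in only 5 of 10 other settings and in 2 of the 6 fits with a library left out. Cyp26b1, the other CYP26 gene of the 9, rose (0.38, limma adjusted p = 0.00221), and its own response to retinoic acid was not tested.

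Markers of the cells in which these genes are known are given beside them, with other lists for comparison. The part of any list in the results was not tested. Beside Aldh1a1, 5 of 25 Sertoli markers rose, 3 fell and 17 did not pass (median 0.016). They summed to 5222 to 5415 FPKM in wild type against 5155 to 5293 FPKM in Ppp6r3 cKO, overlapping ranges, and none was at 0. The largest parts of that sum, Clu (1156 and 1081 FPKM) and Aard (1104 and 1189 FPKM), went opposite ways and did not pass. The largest change, that of Rhox5 (24.0 and 17.0 FPKM, log2 fold change -0.51, limma adjusted p = 0.0373), was lost when wild-type replicate 1, 2 or 3, or else Ppp6r3 cKO replicate 1, was left out (-0.63 to -0.38 over the libraries left out), with no filter, with a minimum of 0.5 FPKM and after the GC and length correction. The erythroid-lineage and Sertoli factor Gata1 fell by 0.47 (limma adjusted p = 0.00177), and Cst9 fell by 0.23. The 5 that rose were Amh (0.36), Kitl (0.30), Inhbb (0.29), Dmrt1 (0.24) and Gata4 (0.23).

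Beside Aldh1a2, all 22 meiotic prophase markers fell (median -0.93), from a sum of 666.3 to 676.1 FPKM to one of 382.8 to 399 FPKM, with none at 0. The recombination gene Meiob (log2 fold change -2.10) and Spo11, which cuts DNA to start recombination (-1.80), fell most. The fall of Aldh1a2, by 0.28, was smaller than that median.

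Beside Cyp26b1, 3 of 10 myoid and smooth muscle markers fell, none rose and 7 did not pass (median -0.04), from a sum of 643 to 667.6 FPKM to one of 547.6 to 579.1 FPKM, with none at 0. Most of that sum was Acta2, at 551.7 and 463.3 FPKM. The muscle actin genes Actg2 and Acta2 had log2 fold changes of -0.55 and -0.25 (limma adjusted p = 0.000627 and 0.00508). Interstitial stroma and Leydig cells, not tied to Cyp26b1 above, follow for comparison. In stroma 9 of 12 markers rose and none fell (median 0.30), from 526.5 to 533.3 FPKM to 630.3 to 655.8 FPKM, with none at 0. The collagen Col5a1 rose by 0.52 and the growth factor receptor Pdgfrb by 0.45. Of 11 tested Leydig markers 4 rose and none fell (median 0.19), from 284.1 to 295.4 FPKM to 328.5 to 339.6 FPKM, with Cyp2a4 at 0 in every library. Those 4 were Dlk1 (log2 fold change 0.48), Ptch1 (0.46), Thbs2 (0.41) and Hsd3b1 (0.25). Among those not passing, Cyp17a1 (-0.18) and Insl3 (-0.10) lay wholly lower in Ppp6r3 cKO. Star, Lhcgr and Nr2f2 (0.14 to 0.23) lay wholly higher and did not pass either. Cyp11a1 (0.06) and Hsd17b3 (0.05) did not pass and had overlapping groups.

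For the other lists, 7 of 12 endothelial markers rose (median 0.39, summed 57.7 to 62.7 and 82.8 to 90.2 FPKM) and 4 of 12 macrophage and leukocyte markers rose (median 0.21, 135.3 to 142.5 and 176 to 187.5 FPKM), with none falling. Of 5 tested erythroid markers 3 fell (median -0.54, 320 to 355.7 and 202.8 to 222.7 FPKM). Of 17 tested markers of undifferentiated spermatogonia 6 rose (median 0.25, 102.7 to 105.5 and 126.4 to 131.4 FPKM), and of 11 of differentiating spermatogonia 5 rose and 3 fell (median 0.07, 461.3 to 473.7 and 346.8 to 372.5 FPKM). Stra8, at 129.9 and 51.4 FPKM, is counted in this list, among the meiotic prophase markers and among the genes induced by retinoic acid, and these lists share other members too.

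Base composition also differed between libraries. In the lowest and highest of 10 bins of genes by GC content, Ppp6r3 cKO replicate 1 deviated from the gene means by a median of -0.112 and 0.126 on the log2 scale, the widest of the 6. The 9 genes ran from 44.1% GC (Aldh1a1 and Rdh10) to 57.4% (Rbp4 and Crabp1). After correction for GC content and length, 6 of the 9 still passed, with Cyp26b1 at 0.32, Aldh1a1 at 0.16, Aldh1a2 at -0.21, Rdh10 at -0.24, Rbp4 at -0.42 and Cyp26a1 at -0.49. Without Ppp6r3 cKO replicate 1, 7 of the 9 passed, 2 up and 5 down.

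**Figure D4:**
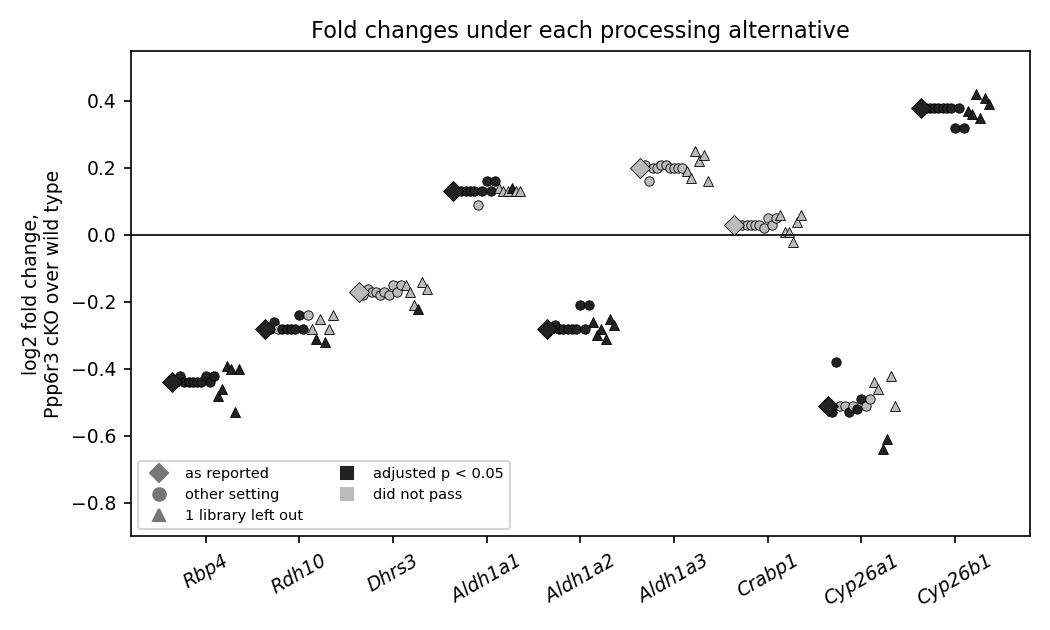
Log2 fold change of Ppp6r3 cKO over wild type (vertical axis) for each of the 9 genes as reported (diamonds), under 10 other settings (circles) and with each of the 6 libraries left out (triangles). Black passed at an adjusted p under 0.05 and grey did not. Cyp26b1, Aldh1a2 and Rbp4 are black throughout, and only Crabp1 crosses 0.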

How the data were processed

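The authors deposited 1 table, named as if it held counts, whose values are FPKM. Paired-end alignment to mm10 used HISAT2 2.0.5, per the series' design text. How fragments were counted (tool, strand setting, annotation) is not given in the sources used here. Multiplied by GENCODE M21 exon length, 97% of the 32589 genes above 0 gave whole fragments in every library (tolerance 0.01), and 964 did so with another length, among them Aldh1a1, Rbp4 and Cyp26a1. Genes with at least 10 such fragments in at least 3 libraries were tested on log2(FPKM + 0.1) with limma 3.58.1 in R 4.3.3 (trend, robust, 2-sided, Benjamini-Hochberg over all 17673 genes, threshold 0.05); this scale understates changes of low genes. Fragments of replicates differed beyond counting noise (chi-square over its degrees of freedom 2.22 to 4.29), so each library counts once. An exact permutation test of 3 against 3 libraries has 0.1 as its smallest p. The fit was tested on simulated data.

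The genes and lists were chosen with earlier results of these data known. Named genes were the 9, Ppp6r3, up to 4 passing genes per direction of each retinoid list and up to 2 per cell type list. Further Sertoli and Leydig markers are named as well, and other exceptions are marked. Positions are GENCODE M21 on GRCm38. Alternatives changed the pseudocount, filter, model (voom on fragments), scaling, GC and length (splines with 5 degrees of freedom), replicate block and libraries.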

Additional observations from a re-analysis of the deposited data

How the results depend on the processing

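Over the 9 genes, 10 other settings and 6 left-out libraries gave 144 values, of which 82 and 39 kept their direction and side of the threshold, 8 and 13 lost the call, and 1 (Dhrs3) gained it. The only reversal was Crabp1 without Ppp6r3 cKO replicate 1 (-0.02 to 0.06 over the libraries left out), a gene never called. Of the 9 genes, 4 to 6 passed in the other settings and 3 to 7 with 1 library left out (3 when wild-type replicate 1, or Ppp6r3 cKO replicate 2 or 3, was left out). Over all genes 2736 passed, 1508 with no filter and 1235 to 2398 without 1 library (1620, 1235 and 1331 without wild-type replicates 1, 2 and 3). Of the other retinoid genes 3 passed, 5 with voom, 5 when GC content and length were corrected for, and 2 to 4 without 1 library. With no filter more genes were tested (32589), and some other settings tested fewer genes or libraries. The cause of the differing counts was not tested. Same-numbered samples did not deviate together (r = 0.0159, -0.00616 and -0.00638). No label says whether the numbers pair samples, and these values cannot exclude a weak pairing. The replicate block left 2192 genes and 5 of the 9 called, without Cyp26a1, and with the GC and length correction 2389 genes and 4 of the 9. Cyp26a1 had the fewest fragments of the 9, with 52 to 100 per library.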
